A study of Homo sapiens with 6 samples.

Results

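The SLC25 mitochondrial carriers were taken as every probe set whose single annotated gene symbol begins with SLC25A, which gave 102 probe sets for 50 of the 19775 gene symbols on the array. Of these symbols 45 are carrier genes. The other 5 (SLC25A5-AS1, SLC25A21-AS1, SLC25A25-AS1, SLC25A48-AS1 and SLC25A3P1) are antisense transcripts or a pseudogene. They were left out of the counts by carrier gene but are part of the counts by probe set. The study used HEK293 cells, an established line derived from human embryonic kidney. Both groups were transfected with an siRNA and harvested after 72 h, the controls with a control siRNA (3 biological replicates) and the others with an siRNA against BAHD1 (3 biological replicates). BAHD1 is a heterochromatin protein that takes part in gene silencing, and the comparison asks which transcripts differ after an siRNA against it. Total RNA of each culture was hybridised to one oligonucleotide array, so that fewer cells of a type and less RNA per cell cannot be told apart. Nothing beyond the word biological says how far apart the 3 cultures of a group were grown, and the p-values measure the spread between them.

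SLC25 proteins are nuclear-encoded and sit in the inner mitochondrial membrane, with a few in other membranes. Each binds its substrate on one side and releases it on the other, which connects the cytosol with the matrix for ATP, phosphate, carboxylates, amino acids, nucleotides, cofactors and iron. They reach the membrane through the TOM complex of the outer membrane, the small TIM chaperones and the TIM22 insertase. Several carriers are known for strong tissue preference, such as SLC25A31 in testis and SLC25A47 in liver.

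The median signal per array lay between 15.8 and 19.5. On the log2 scale the medians of the BAHD1 siRNA arrays averaged 0.14 above those of the control arrays. Pairs from one group correlated at r = 0.974 to 0.978 across probe sets, pairs from different groups at 0.966 to 0.972. All 7 transcripts set as HEK293 markers (PAX2, NEFL, NEFM, INA, VIM, KRT8 and KRT18) were measured. By their brightest probe sets 3 of the 7 passed the intensity-trend test described below, beside 5.52% of all genes. NEFL and NEFM rose and VIM fell. PAX2 and INA were higher without overlap, at log2 fold changes of 0.65 and 0.31, but did not pass. KRT8 and KRT18 overlapped. The summed signal of the 7 ranged from 5247 to 5742 over the control cultures and from 5000 to 5336 after BAHD1 siRNA. VIM made up the largest part of this sum, with 3458, 3679 and 3106 in control arrays and 2743, 2806 and 2653 in BAHD1 siRNA arrays. Of 5 markers of other cell types only HBB had a probe set above the filter, whereas PTPRC, CD14, ALB and MYH7 had none. The 24 probe sets for spiked bacterial poly-A RNAs were all higher in BAHD1 siRNA arrays, by a median log2 difference of 0.58. The part of this difference in the results below was not tested. BAHD1 itself read 62.9, 55.7 and 46.7 in control arrays and 36.6, 46.8 and 41.2 in BAHD1 siRNA arrays, a log2 fold change of -0.40 that did not pass (limma, adjusted p = 0.251 with either variance prior).

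No probe set with an SLC25A symbol passed the test. A probe set was tested when its signal exceeded 17.9, the median of all values, in at least 3 of the 6 arrays, which 74 of the 102 did. These 74 covered 39 carrier genes and 3 of the noncoding transcripts. A first limma fit, in which all probe sets share a single variance prior, called 0 of the 74 at an adjusted p under 0.05 (0% of all 27458 tested). A second fit, the intensity-trend fit, lets the prior depend on brightness. It also called 0 of the 74, beside 4.45% of all probe sets (2.17% higher and 2.28% lower). The smallest adjusted p among the members was 0.0553 there and 0.151 with one prior, and 5 of the 74 were under 0.1 in the intensity-trend fit, beside 8.61% of all. At an unadjusted p under 0.05 in the intensity-trend fit there were 16 of the 74 (9 higher and 7 lower), or 21.6% beside 20.9% of all probe sets. With one prior there were 16 as well, beside 17.6%. The 2 groups did not overlap in 21 of the 74 member probe sets (14 higher and 7 lower in BAHD1 siRNA cells), or 28.4% beside 25.6% of all (13.4% higher and 12.2% lower). With array medians centred the balance turned, to 4 higher and 14 lower, beside 25.4% of all without overlap in either direction. Under that centring 32.5% of all genes were higher. Of the 28 member probe sets below the filter, 3 had all BAHD1 siRNA values above all control values, beside 7.11% of all dim probe sets. These shares lie near those of the array as a whole.

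The absence of calls depended in part on the filter and scaling. With a stricter filter that left 13876 probe sets, the intensity-trend fit called 3 of the 36 members still tested, SLC25A40, SLC25A26 and SLC25A4 (adjusted p = 0.0341, 0.0465 and 0.0436), beside 11.7% of all. With array medians centred it called 2 of 74, SLC25A40 and SLC25A26, beside 6.22% of all. Leaving out control replicate 2 let SLC25A40 pass (adjusted p = 0.0457), beside 1.02% of all, and leaving out BAHD1 siRNA replicate 1 did so for SLC25A26 (adjusted p = 0.0286), beside 4.12%.

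Represented by the probe set with the highest mean signal, 20 of the 39 carrier genes were higher and 19 lower in BAHD1 siRNA cells. Their median log2 fold change was 0.017, beside 0.025 for all 12529 genes, of which 54.4% were higher. Centring the array medians moved the split to 13 higher and 26 lower, and the median of all genes to -0.11 with 32.5% higher. Single carriers ran from -0.46 for SLC25A40 to 0.88 for SLC25A21, and the median size of change without its sign was 0.14, beside 0.16 for all genes. For 35 of the 39 genes the 95% interval of the log2 fold change by the brightest probe set stayed within 2-fold in either direction. The intervals of SLC25A21, SLC25A34, SLC25A42 and SLC25A48, which all had dim probe sets, reached past it. Among the 35, intervals of dimmer kept probe sets of SLC25A13, SLC25A16, SLC25A29, SLC25A36 and SLC25A37 also reached past 2-fold.

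**Figure D1:**
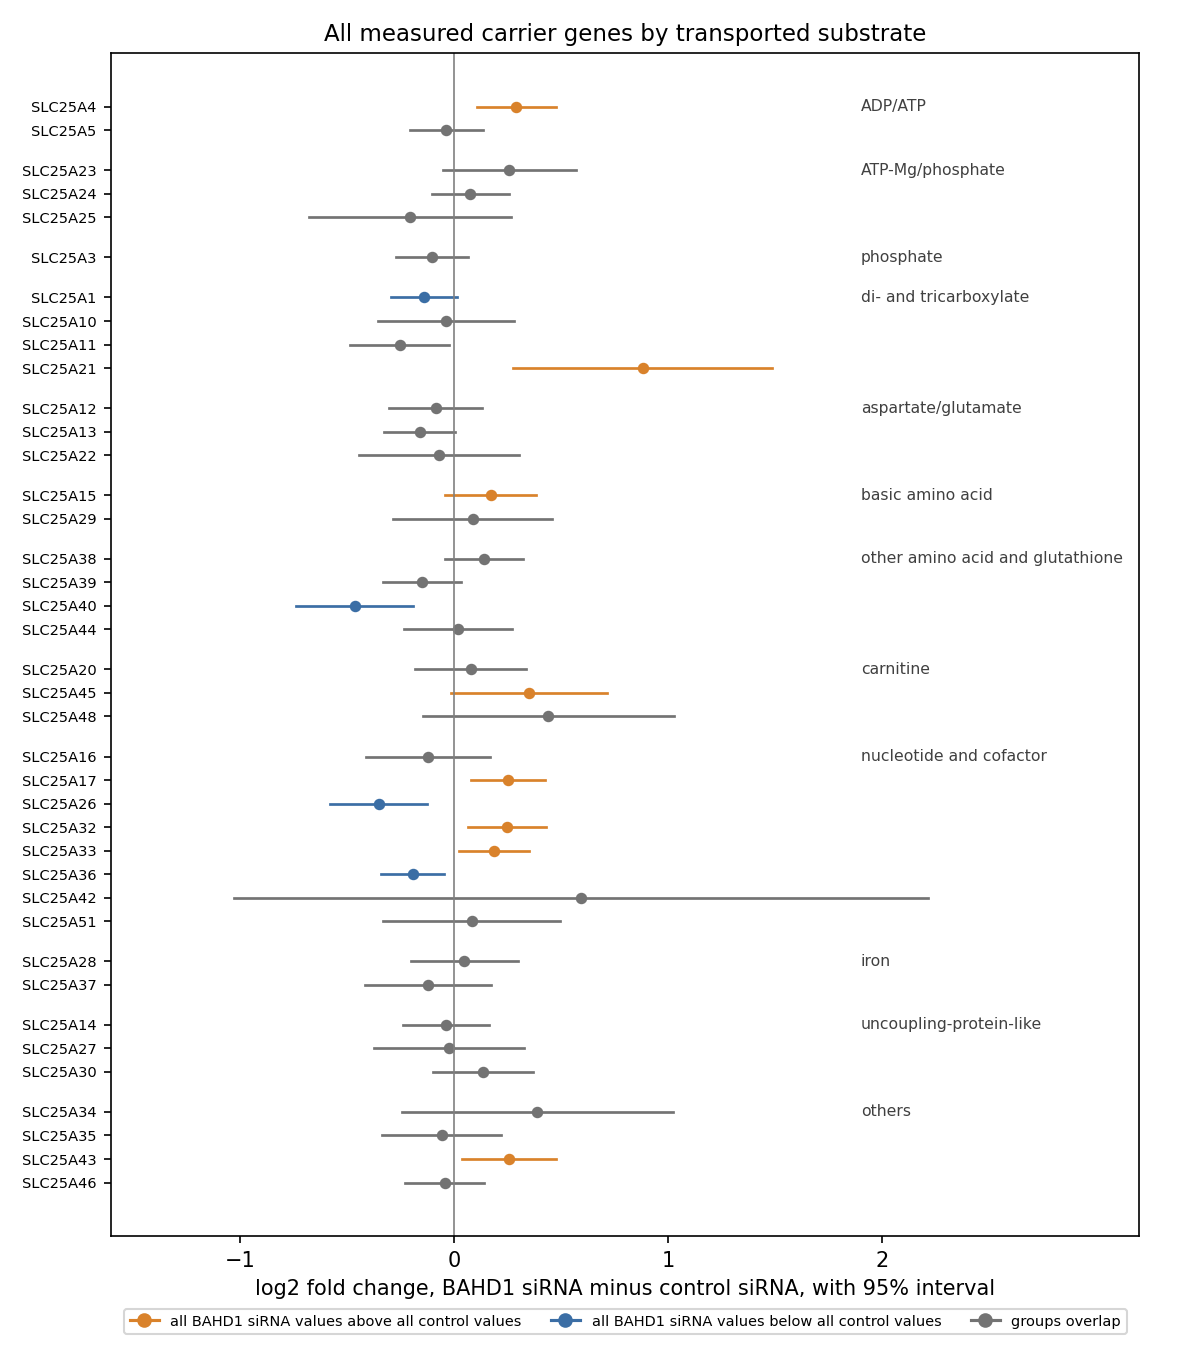
Log2 fold change (BAHD1 siRNA minus control siRNA, horizontal axis) of the 39 measured carrier genes, each by its brightest probe set. Genes are grouped by assigned role. Lines are 95% intervals from the intensity-trend fit on 3 arrays per group, and colour marks genes whose groups did not overlap. Points lie on both sides of 0, from -0.46 for SLC25A40 to 0.88 for SLC25A21, and the widest line belongs to SLC25A42.

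Among the ADP/ATP carriers, which exchange cytosolic ADP for matrix ATP, the form typical of heart and muscle was higher without passing. The form typical of dividing cells was level. SLC25A4 read 259.8, 250.4 and 232 in control arrays and 297.6, 314.7 and 295.8 in BAHD1 siRNA arrays. All 3 BAHD1 siRNA values lay above all 3 control values. This is a log2 fold change of 0.29 ± 0.09 (SE, n = 3 per group) or 1.22-fold, with a 95% interval of 0.11 to 0.48, and it did not pass (limma, intensity-trend adjusted p = 0.0736; exact two-sided permutation p = 0.1, the smallest that 3 samples against 3 can give). A second SLC25A4 probe set, below the filter, read 14.2, 16.2 and 19.6 in control arrays and 25.9, 10.7 and 7.9 in BAHD1 siRNA arrays, with overlap. SLC25A5 read 5155, 5476 and 4785 in control arrays and 5411, 5090 and 4558 in BAHD1 siRNA arrays. Its groups overlapped, and the log2 fold change of -0.035 had a 95% interval of -0.20 to 0.13, whose direction turned after quantile or cyclic loess normalisation (0.036 and 0.032). The difference between SLC25A4 and SLC25A5 was not tested. SLC25A31, the testis form, had no probe set above the filter, its 6 signals running from 0.1 to 4.4, and SLC25A6 is not analysed here.

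SLC25A3, which brings phosphate into the matrix for ATP synthesis, read 4979, 4702 and 4188 in control arrays and 4621, 4128 and 4169 in BAHD1 siRNA arrays. The highest BAHD1 siRNA value fell inside the control range. Its log2 fold change of -0.10 (95% interval -0.27 to 0.067) was not past the threshold, and a second, dimmer SLC25A3 probe set stood at 0.14. Among the calcium-regulated ATP-Mg/phosphate carriers, which set the size of the matrix adenine nucleotide pool, SLC25A24 had a log2 fold change of 0.077 and SLC25A23 of 0.26 by its brighter probe set and -0.12 by the other. SLC25A25 read 30.4, 39.2 and 38.1 in control arrays and 28.3, 31.5 and 32.9 in BAHD1 siRNA arrays. Its groups overlapped at the lowest control value, and the log2 fold change was -0.20 with an interval of -0.68 to 0.27. The fourth of this group, SLC25A41, was below the filter.

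In the di- and tricarboxylate group, 3 of 4 genes were lower and 1 was higher. SLC25A1, which exports citrate for fatty acid and sterol synthesis, read 552.9, 592.5 and 605.9 in control arrays and 527.1, 549.3 and 511.5 in BAHD1 siRNA arrays. The groups were separate but close, and the log2 fold change was -0.14 ± 0.07 (SE, n = 3 per group; limma, intensity-trend adjusted p = 0.289). SLC25A11, the oxoglutarate/malate exchanger of the malate-aspartate shuttle, read 619.5, 538.6 and 486.2 in control arrays and 527.2, 451.5 and 402.1 in BAHD1 siRNA arrays. One BAHD1 siRNA value lay within the control range, at a log2 fold change of -0.25 (adjusted p = 0.201), and the other SLC25A11 probe set was at -0.18 with no overlap. SLC25A10, the malate and succinate carrier, was at -0.038.

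SLC25A21, which exchanges oxoadipate for oxoglutarate in the breakdown of lysine and tryptophan, had the largest difference of the 39 genes. Its signals were 14.7, 20.2 and 21.6 in control arrays and 37.3, 28.5 and 40.6 in BAHD1 siRNA arrays. Every BAHD1 siRNA value exceeded every control value, while the control values lay around the filter level of 17.9. The lowest, 14.7, was below it, so the probe set passed the filter only with BAHD1 siRNA arrays counted. The log2 fold change was 0.88 ± 0.28 (SE, n = 3 per group), or 1.84-fold, with a 95% interval of 0.28 to 1.49, and it did not pass (limma, adjusted p = 0.0947 in the intensity-trend fit and 0.151 with one prior). With a pseudocount of 16 in place of 1, under which low signals weigh less, it was 0.56. SLC25A21-AS1, an antisense transcript whose gene overlaps SLC25A21, read 33.7, 45.5 and 51.3 in control arrays and 49.1, 46.5 and 58.4 in BAHD1 siRNA arrays. These groups overlapped, at a log2 fold change of 0.25 (adjusted p = 0.516). The other kept antisense transcripts, SLC25A25-AS1 and SLC25A5-AS1, were at 0.23 and -0.041.

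The aspartate/glutamate carriers, which complete the malate-aspartate shuttle, were slightly lower by their brightest probe sets: SLC25A12 by a log2 fold change of -0.085, SLC25A13 by -0.16 and the glutamate carrier SLC25A22 by -0.069. None of the 3 separated the groups, and the smallest adjusted p was 0.254. Other probe sets differed, with SLC25A12 at 0.035 and SLC25A13 at -0.048 and 0.46. SLC25A18, a further glutamate carrier, was below the filter. Of the basic amino acid carriers, SLC25A15, the ornithine carrier of the urea cycle, read 276.1, 237.9 and 271.3 in control arrays and 277.8, 329.6 and 278.5 in BAHD1 siRNA arrays. The groups did not overlap, though the nearest values almost met, and the log2 fold change of 0.17 did not pass (adjusted p = 0.345). SLC25A29, which carries arginine and lysine, had 2 kept probe sets that differed. The brighter was at 0.087. Its other one read 19.3, 52.1 and 64.2 in control arrays and 67, 92.2 and 77.1 in BAHD1 siRNA arrays. All BAHD1 siRNA values were above all control values there, with control replicate 1 far below the rest, and the log2 fold change of 0.94 dropped to 0.43 without that array.

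Glutathione and other amino acid carriers included the gene with the lowest value by brightest probe set. SLC25A40, a glutathione carrier related to SLC25A39, read 269.8, 214.9 and 295 in control arrays and 169.6, 214.2 and 178.7 in BAHD1 siRNA arrays. The BAHD1 siRNA values were all below the control values, the highest of them only just. The log2 fold change was -0.46 ± 0.13 (SE, n = 3 per group), or 0.725-fold, with a 95% interval of -0.74 to -0.19 (limma, adjusted p = 0.0553 in the intensity-trend fit and 0.223 with one prior; exact two-sided permutation p = 0.1). The second SLC25A40 probe set read 80.2, 95.7 and 99 in control arrays and 82.1, 70.3 and 57.2 in BAHD1 siRNA arrays. One value overlapped, and the log2 fold change was similar at -0.40 (adjusted p = 0.181). SLC25A39, the better known mitochondrial glutathione carrier, was at -0.15 with overlapping groups. SLC25A38, a glycine carrier needed for haem synthesis, was at 0.14, and SLC25A44, a carrier of branched-chain amino acids, at 0.017. A dimmer SLC25A44 probe set, with 82.4, 74.1 and 84.3 in control arrays and 96.8, 94.1 and 98 in BAHD1 siRNA arrays, separated the groups at 0.26.

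The 3 measured members of the group set around the carnitine carrier SLC25A20 were higher without passing. SLC25A20, which exchanges acylcarnitine for carnitine in fatty acid oxidation, was at 0.078 with overlapping groups. SLC25A45, a related carrier, read 53.4, 46.6 and 45.5 in control arrays and 55.4, 60.6 and 70.6 in BAHD1 siRNA arrays. The groups did not overlap, at a log2 fold change of 0.35 (adjusted p = 0.26). SLC25A48 read 32.6, 18.2 and 25 in control arrays and 37.4, 36.7 and 28 in BAHD1 siRNA arrays. Its log2 fold change was 0.44 with overlap (adjusted p = 0.381), and a second SLC25A48 probe set was at 0.68 without overlap. That second probe set was kept through the BAHD1 siRNA arrays alone, so its difference was favoured by the filter. SLC25A47, the liver form, was below it.

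The nucleotide and cofactor carriers were the largest group, with 8 genes measured, 5 higher and 3 lower. SLC25A26, which imports S-adenosylmethionine for methylation inside mitochondria, read 291.3, 297.1 and 305.7 in control arrays and 269.6, 232.7 and 202.3 in BAHD1 siRNA arrays. The control values lay close together and above all BAHD1 siRNA values. The log2 fold change was -0.35 ± 0.10 (SE, n = 3 per group; 95% interval -0.58 to -0.13; limma, intensity-trend adjusted p = 0.0756, 0.232 with one prior). It was -0.25 without BAHD1 siRNA replicate 3. SLC25A17, a peroxisomal carrier of coenzyme A and related cofactors, read 391.9, 421 and 421.9 in control arrays and 517, 452 and 503.5 in BAHD1 siRNA arrays. All BAHD1 siRNA values were higher, at a log2 fold change of 0.25 ± 0.08 (SE, n = 3 per group; adjusted p = 0.0927), whereas its other, dimmer probe set was at -0.059.

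SLC25A32, which brings folate or flavin into mitochondria, read 269.3, 276.8 and 308.7 in control arrays and 329.2, 340.6 and 344 in BAHD1 siRNA arrays. The groups were separate, at a log2 fold change of 0.25 (adjusted p = 0.115). By their brightest probe sets the pyrimidine nucleotide carriers SLC25A33 and SLC25A36 stood on opposite sides of 0. SLC25A33 read 409.6, 397.6 and 394.6 in control arrays and 485.6, 438.2 and 446.7 in BAHD1 siRNA arrays. For SLC25A36 the brightest probe set read 778.5, 794.3 and 765.4 in control arrays and 656.8, 719.2 and 671 in BAHD1 siRNA arrays. Neither pair of groups overlapped, with log2 fold changes of 0.19 (adjusted p = 0.178) and -0.19 (adjusted p = 0.125). The difference between these carriers was not tested, and the 5 probe sets of SLC25A36 ran from -0.59 to 0.29. The dim one at 0.29 also separated the groups, in the other direction. It read 44.3, 46.7 and 47.5 in control arrays and 56.6, 53.5 and 60.5 in BAHD1 siRNA arrays. SLC25A42, a coenzyme A carrier, read 3.1, 32.9 and 36.5 in control arrays and 16, 36.4 and 27.1 in BAHD1 siRNA arrays. Its log2 fold change of 0.59 rested on the low signal of control replicate 1 and was -0.45 without it. SLC25A16 and the NAD carrier SLC25A51 were at -0.12 and 0.083, both with overlap.

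**Figure D2:**
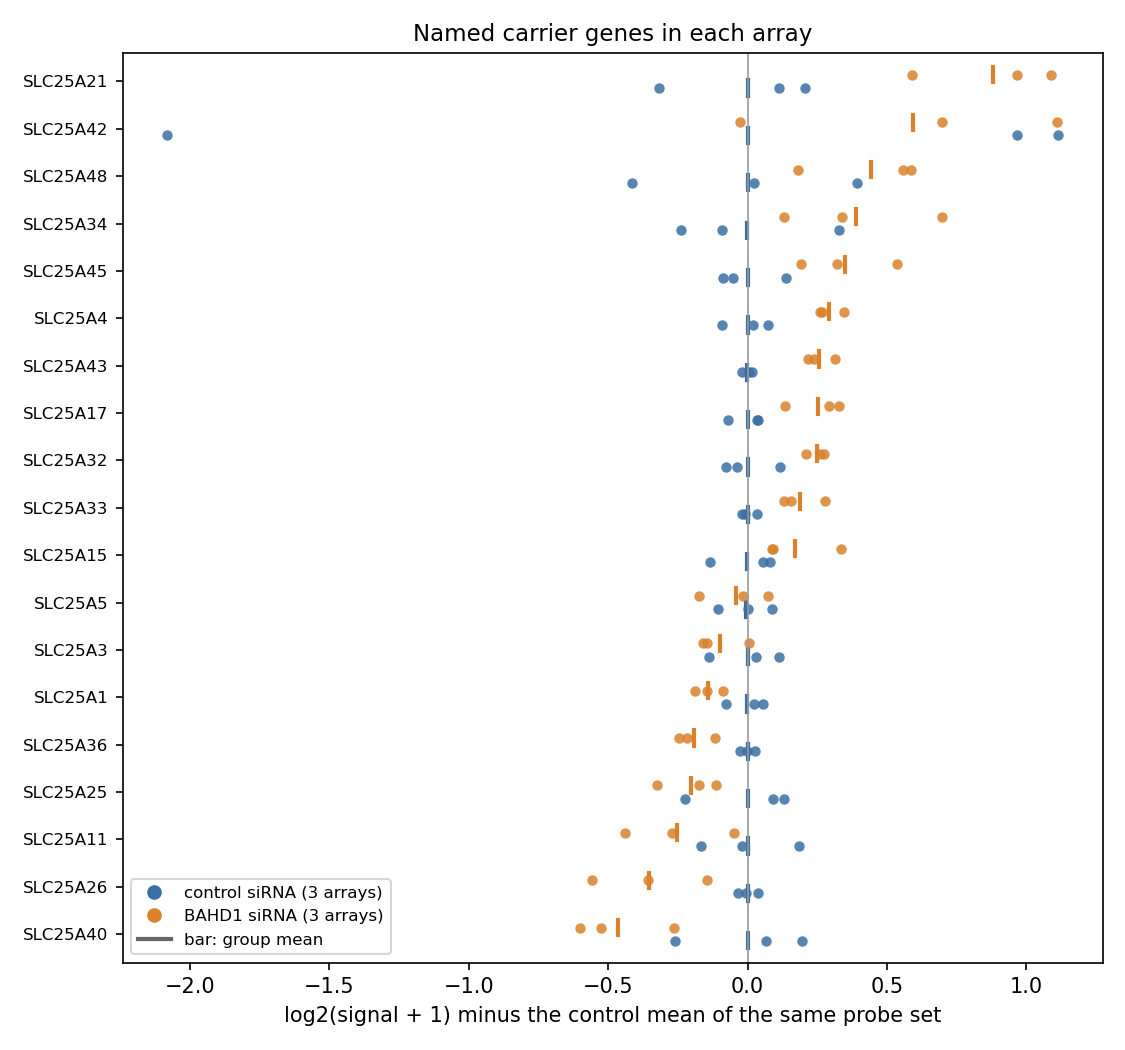
Each of the 19 carrier genes named by the stated rule, with the log2(signal + 1) of every array minus the control mean of the same probe set on the horizontal axis; blue points are the 3 control arrays, orange points the 3 BAHD1 siRNA arrays, and bars the group means. SLC25A4, SLC25A43 and SLC25A21 show orange points to the right of all blue points, SLC25A26 and SLC25A40 to the left, and the SLC25A42 control points are the most scattered.

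The iron carriers, which feed haem and iron-sulphur cluster synthesis, gave small and mixed values. SLC25A28 was at 0.049 and SLC25A37, the form important in red cell precursors, at -0.12 by its brightest probe set. SLC25A37 had 7 kept probe sets, 4 higher and 3 lower, from -0.12 to 0.42. One of the 2 without overlap read 33.8, 39 and 38.7 in control arrays and 52.9, 53.7 and 44.3 in BAHD1 siRNA arrays. Those BAHD1 siRNA values were all higher (log2 fold change 0.42, adjusted p = 0.213), while the brightest had the opposite sign. The carriers that resemble uncoupling proteins, SLC25A14, SLC25A27 and SLC25A30, were at -0.038, -0.023 and 0.14. A further SLC25A14 probe set read 194.1, 198.6 and 203 in control arrays and 173.9, 161.5 and 150.1 in BAHD1 siRNA arrays. It separated the groups at -0.30 (adjusted p = 0.108).

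Among carriers with other or unassigned roles, SLC25A43 read 131.9, 134.2 and 135.3 in control arrays and 158.1, 155.8 and 166.4 in BAHD1 siRNA arrays. The control values were tightly grouped and lay below all BAHD1 siRNA values, at a log2 fold change of 0.26 ± 0.10 (SE, n = 3 per group; limma, intensity-trend adjusted p = 0.168). SLC25A43 and SLC25A5 are close neighbours on chromosome X in the RefSeq gene table of GRCh38.p14, with SLC25A5-AS1 and small RNA pseudogenes between them. Neither SLC25A5 nor SLC25A5-AS1 separated the groups. SLC25A34 read 19.9, 27 and 17.9 in control arrays and 27.2, 23.4 and 35.1 in BAHD1 siRNA arrays. Its groups overlapped, at 0.39 with an interval of -0.24 to 1.02. SLC25A46, an outer membrane protein of mitochondrial fission, was level, at -0.044 and 0.045 by its 2 probe sets, and SLC25A35 at -0.058 and 0.012.

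Of the 39 carrier genes, 20 had more than 1 kept probe set, and in 13 of the 20 these differed in sign. For SLC25A16 3 probe sets were lower and 1 higher, from -0.37 to 0.38, and 1 of the lower ones separated the groups (87.3, 87.8 and 98.2 in control arrays; 70.2, 76.7 and 80.5 in BAHD1 siRNA arrays). The 7 genes whose probe sets kept one sign were SLC25A11, SLC25A14 and SLC25A40, all lower, and SLC25A15, SLC25A29, SLC25A44 and SLC25A48, all higher. With each array left out in turn, 24 of the 39 genes kept their sign in all 6 cases and 15 did not.

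**Figure D3:**
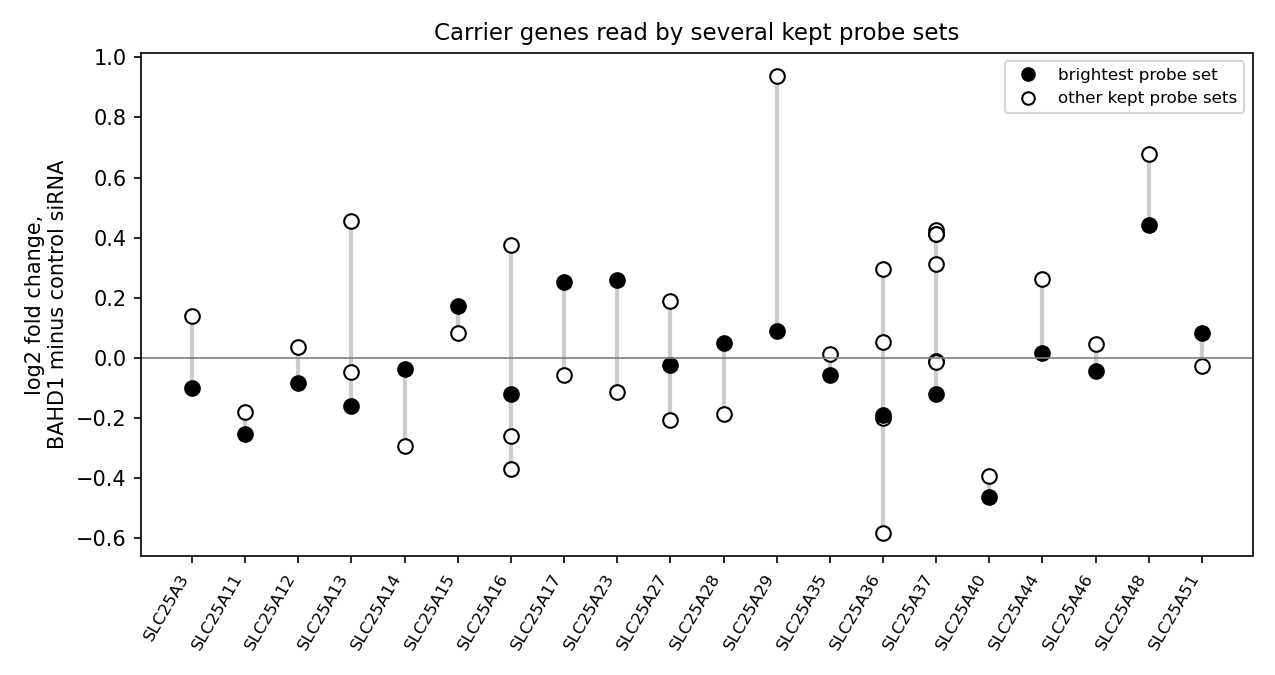
Log2 fold change (vertical axis) of every kept probe set for the 20 carrier genes with more than 1; the filled circle is the brightest probe set and open circles the others. The spread is widest for SLC25A36 (-0.59 to 0.29) and SLC25A29 (0.087 to 0.94), while both SLC25A40 probe sets lie together below 0.

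In the dimmest quartile of kept probe sets 10 of 11 members were higher, with a median log2 fold change of 0.41, beside 60.9% higher and a median of 0.11 for all probe sets of that quartile. In the brightest quartile 9 of 19 members were higher with a median of -0.035, beside 42.1% and -0.035 for all. The 11 include SLC25A25-AS1 and the SLC25A48 probe set that exceeded the filter level in no control array, and without these there were 8 of 9 higher. Of the 9, SLC25A21, SLC25A34, SLC25A42 and single probe sets of SLC25A37 and SLC25A16 had a control value at or below that level. They reached the required 3 arrays only with BAHD1 siRNA arrays counted, so the filter could favour higher values there. Without control replicate 1 the 11 gave 7 higher and a median of 0.14, beside 59.1% and 0.097 for all probe sets of the quartile, and without BAHD1 siRNA replicate 3 a median of 0.24. These counts are a description, rest in part on those arrays and were not tested. Scaling also moved single carriers. Quantile normalisation left SLC25A4, SLC25A40, SLC25A26 and SLC25A21 at 0.30, -0.46, -0.35 and 0.78. Centring the array medians lowered every log2 fold change by 0.14. It took SLC25A4 to 0.15 (limma, intensity-trend adjusted p = 0.494), SLC25A17 to 0.11, SLC25A32 to 0.11, SLC25A43 to 0.12, SLC25A45 to 0.21, SLC25A33 to 0.050 and SLC25A15 to 0.034. Of the lower carriers it took SLC25A1 to -0.28, SLC25A11 to -0.39 and SLC25A36 to -0.33, none of which passed.

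**Figure D4:**
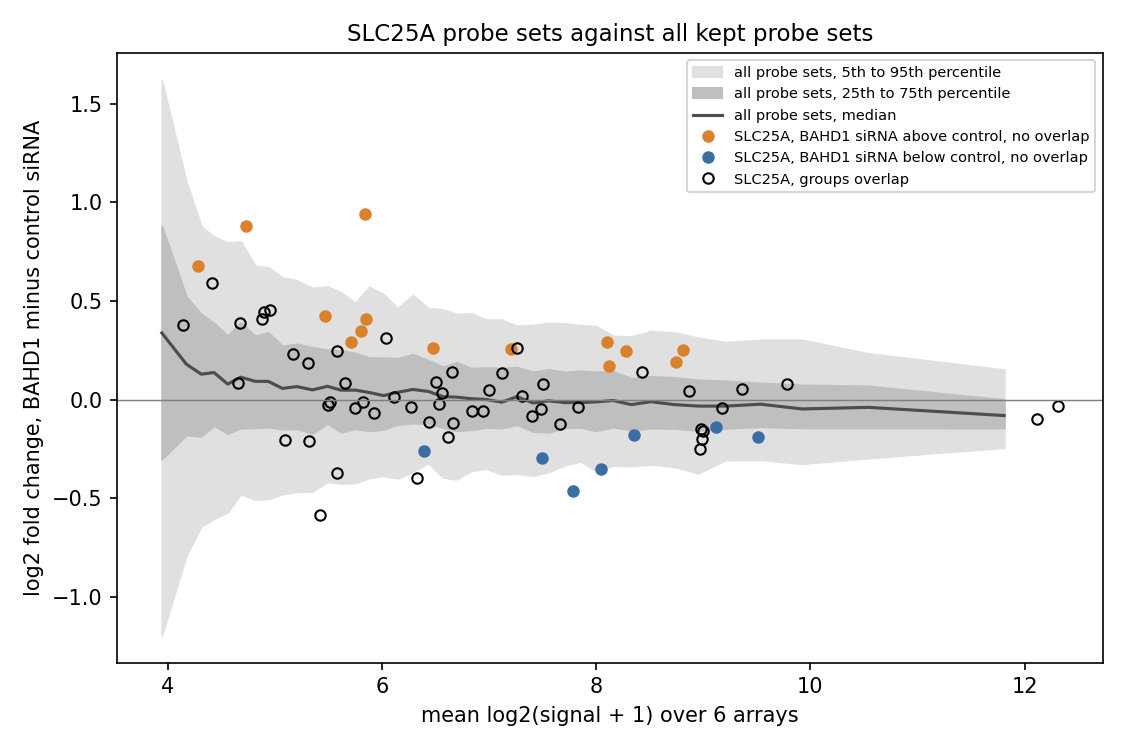
Log2 fold change (vertical axis) against mean log2(signal + 1) over 6 arrays (horizontal axis) for the 74 member probe sets, over grey bands with the percentiles of all 27458 probe sets; orange and blue points are members whose groups did not overlap. Members at low signal lie mostly above 0, and SLC25A40 and SLC25A26 lie near or below the lower edge of the wider band.

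Other proteins of mitochondrial transport, from a list of 42 genes, were read for comparison. The list includes family members, such as UCP2, whose gene symbols do not begin with SLC25A. Of the 36 measured by a kept probe set, 3 passed the intensity-trend test by their brightest one, beside 5.52% of all genes, and 0 passed with one prior. The median log2 fold change of the 36 was 0.021. UCP2, a carrier of the same protein family, read 422.9, 450.2 and 394.2 in control arrays and 305.7, 297.8 and 331.5 in BAHD1 siRNA arrays. Every BAHD1 siRNA value was lower, and UCP2 fell by 0.44 on the log2 scale (SE 0.084, n = 3 per group; limma, adjusted p = 0.0163), with its dimmer probe set at -0.26. TOMM22, a receptor subunit of the outer membrane import complex, read 858.3, 884.1 and 797 in control arrays and 652.7, 738.1 and 630.5 in BAHD1 siRNA arrays. It fell by 0.33 (adjusted p = 0.0333), and by 0.36 at a second called probe set, with the dimmest of its 3 at 0.24.

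MICU2, a regulator of the mitochondrial calcium uniporter, rose. Its signals were 560.7, 535.7 and 644.7 in control arrays and 705.7, 857 and 889.6 in BAHD1 siRNA arrays, without overlap, and the log2 fold change was 0.49 (adjusted p = 0.0178). MTCH2, an outer membrane protein of carrier descent, had 1 called probe set at 0.34 (adjusted p = 0.0457), while its brightest one was at -0.058. Without control replicate 1, control replicate 2 or BAHD1 siRNA replicate 2 none of the 36 genes passed by their brightest probe set, without BAHD1 siRNA replicate 3 only UCP2 did, and under the alternatives with another normalisation, a stricter filter or a replicate block between 2 and 6 did.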

How the data were processed

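The authors deposited an intensity for each probe set in each of 6 arrays, hybridised with biotin-labelled RNA made from oligo(dT)-primed cDNA, per the labels. The mean of each array without its highest and lowest 2% is 100, so the authors' intensity values were taken as linear, globally scaled signal. Per the submitters' processing notes GCOS and GCRMA were used, in roles not given in the sources used here. Arrays were grouped by their titles. Values were set to log2(signal + 1), 62 of 54675 probe sets (array controls) were left out, and groups were compared in R 4.3.3 with limma 3.58.1 (lmFit, eBayes with one prior, and with trend and robust options), with Benjamini-Hochberg adjustment over all 27458 probe sets at 0.05. Intervals are those of the intensity-trend fit. Single values had exact two-sided permutation tests. The number of arrays limits the precision. The fits were tested on simulated data. The simulated spreads came from the intensity-trend fit and no whole array was shifted, so that test does not bear on the array shifts described above. Alternatives were other filters, scalings, pseudocounts, array weights, a replicate block and leaving out each array.

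The members, gene lists and alternatives were chosen with earlier results of these data known. Genes given value by value are the 5 with the largest difference in each direction, SLC25A1, SLC25A3, SLC25A4 and SLC25A5, those whose groups did not overlap, and genes whose probe sets differ in sign where one separates the groups; a called probe set would have been included. Further probe sets of SLC25A4, SLC25A29, SLC25A40, SLC25A44, SLC25A48, SLC25A14 and SLC25A11 were described after their values were seen. Gene names come from the platform annotation. SLC25A6 and SLC25A52 are not analysed here, and no coordinates are given, since the values name no genome build.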

Additional observations from a re-analysis of the deposited data

Results flagged for a closer look

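Among the 28 member probe sets below the filter, which the comparison did not use, 3 had all BAHD1 siRNA values above all control values, beside 7.11% of all 27155 probe sets below the filter. The SLC25A3P1 pseudogene probe set read 2.9, 1 and 3.2 in control arrays and 12, 13.4 and 5.3 in BAHD1 siRNA arrays, with a mean of 10.2 in the latter. A dim SLC25A28 probe set read 0.6, 0.9 and 0.8 against 6.5, 1.7 and 10.1 (mean 6.1), and a second SLC25A34 probe set read 0.8, 1.6 and 1.2 against 2.2, 3.1 and 2.5 (mean 2.6). These signals have no stated background, and no detection calls were used.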

How the results depend on the processing

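With one prior, 0 member probe sets were called under every alternative run, including an adjusted p under 0.1, although with the stricter filter that fit called 1147 of all probe sets. In the intensity-trend fit 0 were called with no filter, after quantile or cyclic loess normalisation, on the log2(signal + 16) scale and with array weights. It called 5 at an adjusted p under 0.1 (8.61% of all), 3 of 36 with the stricter filter (11.7%), 2 with array medians centred (6.22%) and 0 to 1 with one array left out (0.645% to 4.28%). The replicate numbers are shared by both groups, but arrays with the same number did not deviate together (r = 0.010, 0.010 and 0.024), so they were not treated as pairs. A replicate block called 1, the second SLC25A29 probe set, and moved the calls over all probe sets from 1221 to 1629.

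The median over carrier genes moved by more than the replicate spread of 0.025 under some alternatives. It was 0.072 with the mean over a gene's probe sets, -0.037 with the stricter filter, -0.12 with array medians centred and -0.011 with array weights. With one array left out it ran from -0.024 to 0.043, in part within that spread. It stayed within the spread with the replicate block, no filter, quantile or cyclic loess normalisation and log2(signal + 16). The count of other transport genes called went from 3 to 6 with the replicate block, the stricter filter, quantile and cyclic loess normalisation, and was between 0 and 3 when single arrays were dropped. SLC25A5 changed sign after quantile (0.036) and cyclic loess normalisation (0.032), without control replicate 2 (0.012) and without BAHD1 siRNA replicate 3 (0.032), and SLC25A42 without control replicate 1 (-0.45). With single arrays dropped, SLC25A5 lay between -0.091 and 0.032 and SLC25A42 between -0.45 and 1.15. The cause was not tested. The named carriers' results under the alternatives were counted separately for each variance prior, although the fold change is the same with both. Of these results, 522 kept direction and side of the threshold, 7 passed it and 10 changed sign. The 10 are the sign changes of SLC25A5 and SLC25A42 given above, each counted with both priors. The counts therefore do not stand for separate checks. Dim probe sets, with wide intervals, limit what can be said of SLC25A21, SLC25A34, SLC25A42 and SLC25A48. The same holds for the dimmer probe sets of SLC25A13, SLC25A16, SLC25A29, SLC25A36 and SLC25A37.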

Other observations

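Control replicate 1 held the lowest of the 6 signals in 7 of the 11 member probe sets of the dimmest quartile of signal, beside 20.8% of all 6865 probe sets of that quartile. For one dim SLC25A37 probe set it read 12.3, beside 36.6 and 32.3 in the other control arrays and 19.9, 41.2 and 43.3 in BAHD1 siRNA arrays, and for one SLC25A16 probe set 8.5, beside 19.7 and 18 and then 14.9, 17 and 27.5. Without control replicate 1 the log2 fold changes of these probe sets went from 0.41 to -0.060 and from 0.38 to 0.022. That of SLC25A21 went from 0.88 to 0.72.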
